A study of Mus musculus with 8 samples.

Results

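The genes described here encode the subunits of the oxidative phosphorylation machinery of mouse liver. They were chosen by symbol alone: the Nduf genes of the a, b, c, s and v series, Sdha to Sdhd, the Uqcr genes, Cyc1, the Cox4 to Cox8 genes, the Atp5 genes, and the protein-coding mt- genes of the mitochondrial genome. This gave 98 Ensembl identifiers with 97 symbols among the 20894 genes of the table, since Atp5o has 2 identifiers. Of these, 85 lie in the nucleus and 13 in the mitochondrial genome.

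The 4 POLR2G libraries came from liver of wild-type mice injected with AAV8-TBG-POLR2G, a viral vector in which the hepatocyte promoter TBG drives POLR2G, a subunit of RNA polymerase II. The 4 GFP control libraries came from wild-type mice given AAV8-TBG-GFP, so both groups carried a vector, and all livers were taken after a daytime fast. Strain, age and sex are not in the labels used here. Nothing in them ties a library to an animal, and the p-values therefore reflect only how these libraries vary, a spread that may be technical. 1 POLR2G column bears a library name that the labels do not list and is called the unnumbered POLR2G library. No column could be tied to the labelled POLR2G replicate 2, and the labels do not say whether the unnumbered library is that replicate. Where 4 values are listed, they are those of replicates 1, 3, 4 and the unnumbered library for POLR2G and of replicates 1, 2, 3 and 4 for GFP control. The study asked what hepatocyte POLR2G does to metabolic gene programs of the liver.

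Oxidative phosphorylation passes electrons from NADH through complex I, and from succinate through complex II, to ubiquinone, complex III, cytochrome c and complex IV, which reduces oxygen. Complexes I, III and IV pump protons across the inner mitochondrial membrane, and complex V, the ATP synthase, uses their return to make ATP. All subunits of complex II are nuclear-encoded, while the other complexes are built from subunits of both genomes; the liver of a fasted animal draws on them to oxidise fatty acids and to pay for glucose production. The nuclear genes are read by RNA polymerase II and the mt- genes by a separate mitochondrial polymerase.

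Library totals were 16362899 to 22165491 counts in the POLR2G group and 14159056 to 18865284 in the GFP control group. Polr2g itself had 38649 to 54553 counts in POLR2G libraries, against 213 to 258 in GFP control libraries, a 176-fold difference. Summed hepatocyte markers took 117791 to 131867 CPM (counts scaled to library size with TMM factors) in POLR2G livers and 125277 to 146528 CPM in GFP control livers. Kupffer cell markers, 9 genes, summed to 241 to 492 CPM in POLR2G livers and 216 to 327 CPM in GFP control livers, and erythroid markers, 7 genes, to 808 to 1545 CPM in POLR2G livers and 612 to 1437 CPM in GFP control livers. The top Kupffer sum was that of the unnumbered POLR2G library; the other POLR2G libraries had 241 to 299.6 CPM. In that library Marco was at 60.5 CPM, against 3.92 to 9.96 CPM in the other POLR2G libraries. Of the 6 muscle markers Acta1, Myh4, Myl1 and Tnnt3 were at 0, Ckm had at most 2 counts, and Mylpf had 14 to 26 counts in POLR2G and 3 to 20 in GFP control libraries. Of the 6 adipocyte markers Lep was at 0, and the list summed to 0 to 0.228 CPM in POLR2G and 0.451 to 1.19 CPM in GFP control libraries. Yet Pdgfrb, a stellate cell marker, was also at 0, and Stab1, an endothelial marker, had at most 4 counts in a library. Low counts here therefore do not show that muscle or fat was absent, and whether they cover all transcripts was not tested. The part of these markers in the results was not tested. In bulk liver RNA, fewer cells of a type and less RNA per cell cannot be told apart.

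Nuclear oxidative phosphorylation genes are known for promoters that hold sites of NRF1, of GABP (an ETS factor) and of other regulators. RefSeq promoters (GRCm38.p6) ran from 250 bases before to 50 after the start. They were matched by Ensembl identifier, or else by symbol or synonym, for 69 of the 85 nuclear genes, 61 of them among the 73 tested. The NRF1 pattern GCGCNNGCGC stood in 15 of these 61, or 24.6%, against 13.3% of 8273 other tested genes and 6.43% of all 27025 promoters. The ETS pattern CCGGAAG stood in 14, or 23.0%, against 18.01% and 9.12%, the pattern AAGATGG of YY1 in 9, or 14.8%, against 7.42% and 6.48%, and the pattern AAGGTCA of the ERR receptors in 7, or 11.5%, against 3.26% and 4.66%. TATAAA was found in 4, or 6.56%, against 7.84% and 14.2%. Both strands were searched, and these shares are descriptions of letters, not of bound sites. By complex, NRF1 patterns were in 8 of 30 promoters of complex I, 2 of 3 of complex II, 0 of 4 of complex III, 1 of 10 of complex IV and 4 of 14 of complex V. Below are Cox6a1, Atp5h and Sdhd, the promoters that hold both the NRF1 and the ETS pattern, and Ndufb7, the gene with the smallest p that has an entry; capitals mark the patterns named after each, and a reverse-strand TATAAA match in Ndufb7 is left unmarked.
Ndufb7, complex I, chr8:83566508-83566807, plus strand, ETS: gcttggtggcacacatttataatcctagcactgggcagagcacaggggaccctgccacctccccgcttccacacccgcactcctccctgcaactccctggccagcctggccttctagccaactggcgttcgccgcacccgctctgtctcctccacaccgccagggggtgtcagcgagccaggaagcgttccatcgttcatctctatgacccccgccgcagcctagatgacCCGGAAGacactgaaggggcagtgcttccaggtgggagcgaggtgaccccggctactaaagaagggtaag
Cox6a1, complex IV, chr5:115348909-115349208, minus strand, NRF1 at 2 places and ETS on the reverse strand: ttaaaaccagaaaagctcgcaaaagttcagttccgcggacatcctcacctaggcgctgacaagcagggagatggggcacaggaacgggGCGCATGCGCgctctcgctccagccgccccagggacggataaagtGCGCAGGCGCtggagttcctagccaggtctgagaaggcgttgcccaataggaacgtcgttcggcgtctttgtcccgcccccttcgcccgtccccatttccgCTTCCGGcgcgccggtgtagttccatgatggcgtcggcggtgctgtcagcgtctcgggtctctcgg
Atp5h, complex V, chr11:115419870-115420169, minus strand, NRF1 and ETS on the reverse strand: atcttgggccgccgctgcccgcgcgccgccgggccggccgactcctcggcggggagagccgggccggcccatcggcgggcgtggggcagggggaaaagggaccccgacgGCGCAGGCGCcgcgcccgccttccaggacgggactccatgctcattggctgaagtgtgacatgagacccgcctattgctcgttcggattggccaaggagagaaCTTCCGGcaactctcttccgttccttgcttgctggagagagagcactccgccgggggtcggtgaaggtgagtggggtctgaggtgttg
Sdhd, complex II, chr9:50603800-50604099, minus strand, NRF1, then ETS and ERR on the reverse strand: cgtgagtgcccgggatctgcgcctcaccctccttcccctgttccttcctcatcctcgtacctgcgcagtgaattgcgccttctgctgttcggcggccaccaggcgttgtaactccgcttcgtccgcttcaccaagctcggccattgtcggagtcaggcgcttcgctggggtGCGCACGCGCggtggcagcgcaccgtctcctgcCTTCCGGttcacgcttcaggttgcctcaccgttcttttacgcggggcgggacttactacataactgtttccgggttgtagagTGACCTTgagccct
The ETS pattern began 20 bases before the start in Ndufb7, 16 in Cox6a1, 38 in Atp5h and 46 in Sdhd. None of these 4 genes passed the test described next: their log2 fold changes of POLR2G over GFP control were 0.19, 0.11, 0.06 and -0.03.

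No oxidative phosphorylation gene differed between POLR2G and GFP control livers past the threshold. Of the 98, 86 had enough counts to be tested (73 nuclear and all 13 of the mitochondrial genome), and edgeR's quasi-likelihood test called 0 of them at an adjusted p under 0.05, with 0.0385% of all 10390 tested genes called (4 genes). The smallest adjusted p from edgeR was 0.503, for Ndufb9. At an unadjusted p under 0.05 edgeR gave 8 of the 86, or 9.30%, all higher in POLR2G, against 8.30% of all tested genes (4.20% higher and 4.10% lower). That count of 8 became 0 with library totals as scaling and 0 without GFP control replicate 4. It was 2 without GFP control replicate 3, 2 without the unnumbered POLR2G library, 3 without POLR2G replicate 4 and 5 without POLR2G replicate 1. It rose to 11 without GFP control replicate 2 and to 13 with upper quartile scaling. DESeq2, which called 1.80% of the genes it adjusted, and limma-voom also called 0 of the 86, with 10 and 8 genes at an unadjusted p under 0.05. Ndufs5, Ndufv1, Ndufv3 and Cox6c were given no adjusted p by DESeq2.

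The intervals were narrow. For 78 of the 86 genes the 95% interval of the fold change lay within 1.5-fold in either direction, as it did for 51.7% of all tested genes and for 87.7% of the 4501 whose mean log2 CPM was 4 or more. The exceptions were Ndufb8, Ndufs5, Ndufv1, Ndufv3, Cox6c, Atp5a1, Atp5d and Atp5s, each at a mean of 11.7 CPM or less. Atp5b, the catalytic beta subunit of the ATP synthase and the strongest nuclear member, shows the values behind such an interval: it had 1226, 1257, 1283 and 1294 CPM in POLR2G livers and 1275, 1242, 1193 and 1246 CPM in GFP control livers. The groups overlapped, and the interval of its fold change ran from 0.932 to 1.12.

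The nuclear genes had slightly higher means in POLR2G livers. Of the 73 tested, 61 had a higher and 12 a lower mean, with a median log2 fold change of 0.07, while 49.3% of all tested genes had a higher mean and their median was -0.0031. Among genes whose mean log2 CPM was 4 or more, 93.5% of 62 nuclear members had a higher mean, against 48.1% of all 4501. Of the 9 tested nuclear members under 10 CPM, 8 had a lower mean; of the other 64, 60 had a higher mean. With library totals as the only scaling, 38 nuclear members had a higher and 35 a lower mean, and the median of all tested genes moved to -0.08; the nuclear median lay 0.08 above that of all genes under both scalings. The summed level of the nuclear genes was 9962, 10078, 10166 and 10622 CPM in POLR2G livers and 10017, 10033, 8990 and 9523 CPM in GFP control livers. GFP control replicates 1 and 2 lay within the POLR2G range and replicates 3 and 4 below it. GFP control replicate 3 was the lowest of the 8 libraries for 38 of the 73 nuclear genes, and the unnumbered POLR2G library, which also had the highest macrophage marker sum, was the highest for 37; whether these go together was not tested. Without GFP control replicate 3 the median was 0.06, with 58 higher and 15 lower means, and without the unnumbered POLR2G library 0.05, with 56 and 17.

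**Figure D1:**
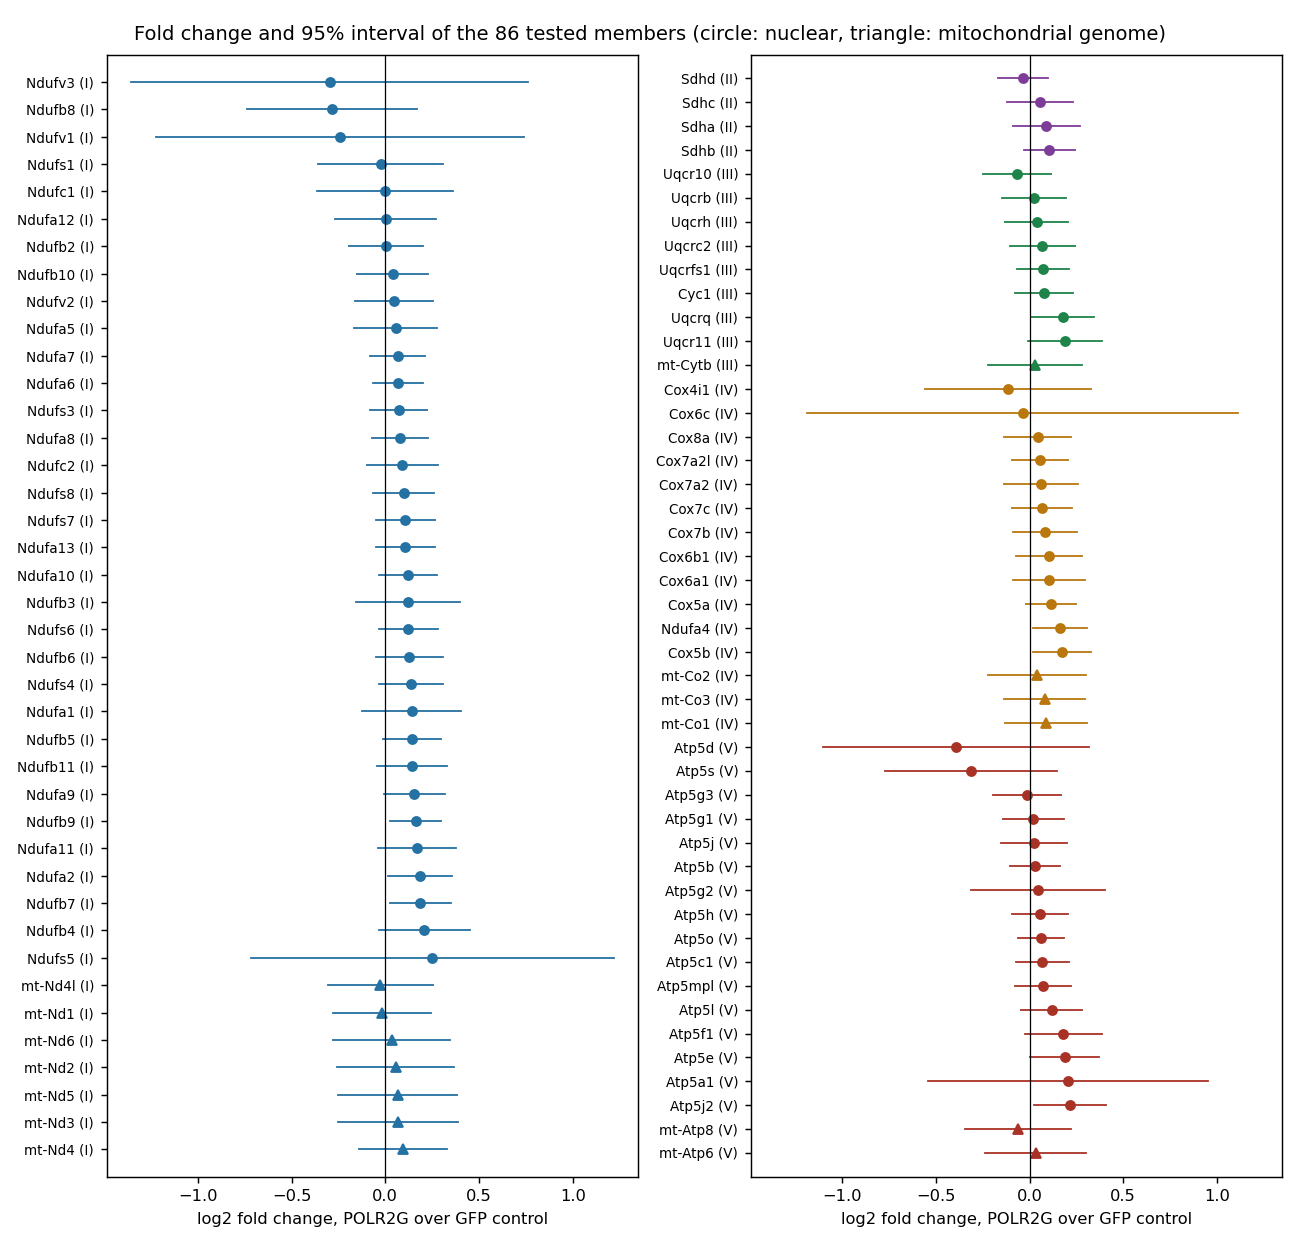
Fold change of each of the 86 tested genes on a log2 scale, POLR2G over GFP control, with its 95% interval from edgeR; circles are nuclear and triangles mitochondrial genome genes, with the complex in brackets. Most points sit a little right of 0 (71 higher and 15 lower means), and 0 genes were called. Wide intervals such as those of Ndufs5, Ndufv3 and Cox6c belong to genes of few counts.

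Complex I is the NADH dehydrogenase. Its nuclear genes, 33 tested of 35, had 28 higher and 5 lower means in POLR2G livers, with a median log2 fold change of 0.11. Summed, they took 2269 to 2387 CPM in POLR2G livers and 2016 to 2252 CPM in GFP control livers (2318 ± 49.8 and 2155 ± 117, SD, n = 4 each), a ratio of 1.08, or 1.05 without GFP control replicate 3. These sums did not overlap, and no p is given for this sum over chosen genes. With library totals as the only scaling they did overlap, with sums of 2123 to 2438 CPM in POLR2G and 2114 to 2384 CPM in GFP control livers. Accessory subunits, which surround the catalytic core, had a median of 0.12 over 27 tested genes, and the core subunits, which carry the flavin and iron-sulfur clusters, 0.06 over 6. This difference was not tested.

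Ndufb9, an accessory subunit of the membrane arm (chromosome 15), had 171, 171, 176 and 172 CPM in POLR2G livers and 161, 161, 145 and 149 CPM in GFP control livers. In TMM-scaled CPM every POLR2G library lay above every GFP control library, and the POLR2G values spanned less than the control values. Its log2 fold change was 0.16 with SE 0.060, a fold interval of 1.02 to 1.23, an exact permutation p of 0.0286, the smallest that 4 against 4 can give, and an edgeR adjusted p of 0.503. Ndufb7, another accessory subunit of that arm, whose promoter is shown above, had 68.6, 62.7, 62.4 and 71.0 CPM in POLR2G livers and 57.1, 62.9, 57.5 and 55.2 CPM in GFP control livers. The groups overlapped through GFP control replicate 2 (log2 fold change 0.19, SE 0.073, edgeR adjusted p 0.527). Ndufb5 and Ndufa10 were also apart, Ndufb5 with 75.02 to 87.3 CPM in POLR2G and 68.3 to 73.3 CPM in GFP control livers, yet neither had an unadjusted p under 0.05 in edgeR.

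The complex I genes with the largest and the smallest fold changes were both at the bottom of the count range. Ndufs5 had 7 to 23 counts in POLR2G and 8 to 19 in GFP control libraries (log2 fold change 0.25, SE 0.431), and Ndufv3 had 6 to 22 in POLR2G and 14 to 25 in GFP control libraries (-0.30, SE 0.471). Ndufs3, a core subunit with 1 coding transcript, was measured far better: 140 ± 6.42 CPM in POLR2G and 134 ± 7.96 CPM in GFP control livers (SD, n = 4 each), a fold interval of 0.946 to 1.17.

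Complex II, succinate dehydrogenase, links the citrate cycle to the chain. Sdha, its flavoprotein, had 615, 697, 691 and 669 CPM in POLR2G livers and 648, 650.5, 552 and 663 CPM in GFP control livers. Its low value in GFP control replicate 3 stands alone, and the groups overlapped (log2 fold change 0.09, edgeR adjusted p 0.833). Sdhb, the iron-sulfur subunit, had the smallest p of the complex, with 194, 200.02, 203 and 215 CPM in POLR2G and 194, 188, 180.5 and 192 CPM in GFP control livers (log2 fold change 0.11, exact permutation p 0.0571, edgeR adjusted p 0.717). Sdhd, a membrane anchor, had a log2 fold change of -0.03, with 211 to 227 CPM in POLR2G and 214 to 234 CPM in GFP control livers. All 4 intervals lay within 1.5-fold.

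Complex III carries electrons on to cytochrome c; 7 of its 8 tested nuclear genes had a higher mean and 1 a lower one, with a median of 0.07. Uqcrq, a small subunit of the complex, had 272, 237, 273 and 253 CPM in POLR2G livers and 236, 246, 212 and 221 CPM in GFP control livers. Only POLR2G replicate 3 lay below a control library, GFP control replicate 2 (log2 fold change 0.18, SE 0.074, edgeR adjusted p 0.564). Uqcr11 had 113 ± 8.26 CPM in POLR2G and 99.1 ± 9.87 CPM in GFP control livers (SD, n = 4 each; 0.19, edgeR adjusted p 0.614). Uqcr10, also a small subunit, had the lowest fold change at -0.07, with 69.4 to 79.0 CPM in POLR2G and 72.5 to 85.7 CPM in GFP control livers. The large core subunit Uqcrc2, at 293 ± 14.5 CPM in POLR2G and 279 ± 23.2 CPM in GFP control livers, and Uqcrh, the hinge protein, differed by 0.07 and 0.04.

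In complex IV, cytochrome c oxidase, 10 of 12 tested nuclear genes had a higher mean, with a median of 0.08. Ndufa4, named for complex I but a subunit of complex IV and counted there, had 316, 326, 312 and 342 CPM in POLR2G livers and 295, 304, 271 and 288 CPM in GFP control livers. Cox5b, which binds zinc, had 162, 156, 167 and 181 CPM in POLR2G livers and 155, 151, 143 and 141 CPM in GFP control livers. In both genes the groups were apart; the log2 fold changes were 0.16 (SE 0.064, fold interval 1.01 to 1.24) and 0.17 (SE 0.068, 1.01 to 1.25), and the edgeR adjusted p was 0.530 for each. Its neighbour in the enzyme, Cox5a, was apart too, at 158 ± 6.52 CPM in POLR2G and 146 ± 4.35 CPM in GFP control livers (SD, n = 4 each; 0.11, edgeR adjusted p 0.661). Cox4i1, the general isoform of subunit IV, had the lowest fold change, -0.11, on 87 to 112 counts in POLR2G and 72 to 119 in GFP control libraries. The isoforms known from muscle or testis had few or no counts. Cox6a2 and Cox8b had 0 to 1 counts, Cox6b2 0 to 4 and Cox7a1 3 to 18 in a library. Cox7b2 and Cox8c had 0 in all 8, as did Cox4i2, the isoform best known from lung. A count of 0 in a library allows up to 3 counts, for counting error only. Uqcrc1, of the complex III core, had 0 to 10 counts in a library, so low counts alone do not show that an isoform is absent.

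Complex V had 13 higher and 3 lower means over 16 tested nuclear genes, with a median of 0.06. Atp5j2, a subunit of the membrane part, had 160.4, 149.6, 153 and 159 CPM in POLR2G livers and 143, 145, 113 and 133 CPM in GFP control livers. The lowest POLR2G value lay above the highest control value, and the low control value was again that of replicate 3 (log2 fold change 0.22, SE 0.085, fold interval 1.02 to 1.32, edgeR adjusted p 0.530). Atp5e, the epsilon subunit of the rotor, had 111 ± 4.45 CPM in POLR2G and 97.2 ± 10.002 CPM in GFP control livers (SD, n = 4 each; 0.19, edgeR adjusted p 0.591). Atp5d, the delta subunit, had the lowest fold change of all members at -0.39, with SE 0.315, and 69 to 143 counts in POLR2G against 62 to 185 in GFP control libraries. The c subunit that forms the rotor ring is encoded by Atp5g1, Atp5g2 and Atp5g3, whose mature proteins are the same. Their sum was 519 ± 13.5 CPM in POLR2G and 520.3 ± 38.7 CPM in GFP control livers, of which Atp5g3 made 71.2 ± 1.31% in POLR2G and 71.6 ± 2.57% in GFP control livers (SD, n = 4 each). Atp5s matches the symbol rule but is known in RefSeq as Dmac2l and is not a core part of the enzyme; its log2 fold change was -0.31 (SE 0.204).

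Over the 5 complexes, 8 of the 86 genes, or 9.30%, had every POLR2G library above every GFP control library, against 2.83% of all tested genes: Ndufa10, Ndufb5, Ndufb9, Cox5a, Cox5b, Ndufa4, Atp5j2 and Atp5mpl. None lay wholly below, against 2.68%. With library totals 0 members lay wholly above and 0 below, against 1.31% and 4.62% of all tested genes, so each statement that a member was apart holds for TMM-scaled CPM. Of these 8, 4 were also among the 8 with an unadjusted p under 0.05 in edgeR (Ndufb9, Ndufa4, Cox5b and Atp5j2).

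**Figure D2:**
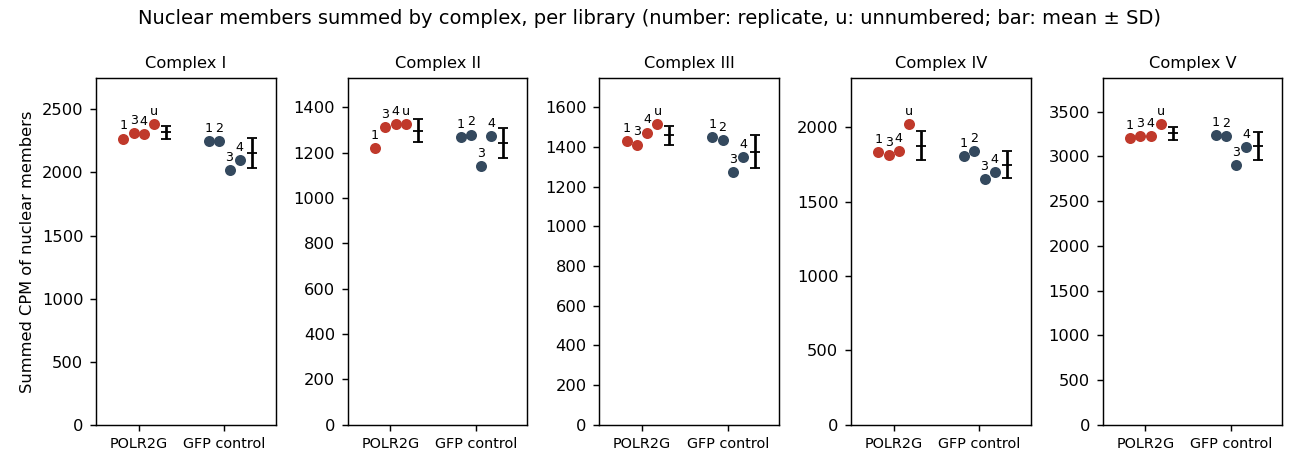
Summed CPM of the nuclear genes of each complex in every library, POLR2G left and GFP control right, with the mean ± SD beside the points. Complex I is the panel whose groups do not overlap with TMM scaling (2269 to 2387 in POLR2G, 2016 to 2252 in GFP control). With library totals its groups do overlap. GFP control replicate 3 is the lowest point of each panel.

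The levels themselves spread widely. Per kilobase of the longest coding transcript, the 13 mitochondrial genome genes had a median of 7681 CPM per kb over all libraries, from 2477 for mt-Nd3 to 25634 for mt-Atp8, and the tested nuclear genes 114 CPM per kb, from 0.555 to 653. mt-Atp8 is annotated at 204 bases and shares 43 of them with mt-Atp6, which had 16252 CPM per kb. Such values depend on the length used, which was 4371 bases for Ndufb2, at 10.7 CPM per kb. The low levels are given by number of annotated coding transcripts. Of the 30 nuclear members with 1 such transcript, 5 had a mean under 10 CPM, and the other 25 had at least 28.9 CPM. Those 5 were the muscle or testis isoforms Cox6a2, Cox7b2, Cox8b and Cox8c, and the second Atp5o entry. Of the 55 with several, 16 were under 10 CPM, among them Ndufv1, Uqcrc1 and Cox4i1, which encode core or constitutive subunits. Uqcrc1, of the complex III core, had 0 to 10 counts in a library and Ndufa3, of complex I, 1 to 7, and neither was tested. Atp5k, a small subunit of complex V, had 0 counts throughout. Atp5a1, whose alpha subunit pairs with the beta subunit in the enzyme, had 12.5 ± 4.77 CPM in POLR2G and 10.9 ± 4.18 CPM in GFP control livers (SD, n = 4 each), while Atp5b had 1265 ± 30.03 CPM in POLR2G and 1239 ± 34.2 CPM in GFP control livers. Whether the counts of such genes cover all their transcripts was not tested.

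Among the nuclear genes with 1 coding transcript, the median level was 103 CPM per kb for 11 genes of complex I (29.7 for Ndufb4 to 232 for Ndufb9), 176 for 2 of complex II, 208 for 4 of complex III, 236 for 5 of complex IV and 291 for 3 of complex V. The ranges of neighbouring complexes in this order overlapped, and the numbers of genes are small. These 25 genes had 23 higher and 2 lower means in POLR2G livers, with a median of 0.11, and the 48 with several coding transcripts 38 and 10, with a median of 0.07.

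**Figure D3:**
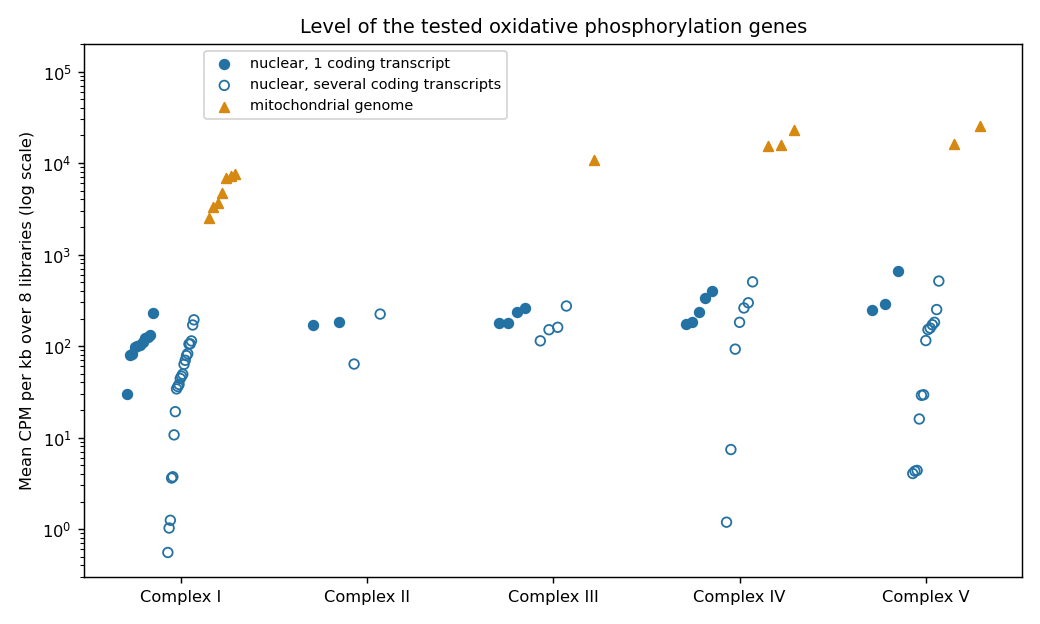
Mean level of each tested gene over the 8 libraries in CPM per kb on a log scale, by complex; filled circles are nuclear genes with 1 coding transcript, open circles those with several, and triangles mitochondrial genome genes. The filled circles keep within 29.7 to 653 CPM per kb, the open ones reach down to 0.555, and the triangles lie from 2477 to 25634.

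The mitochondrial genome genes varied from library to library more than between groups. They encode subunits of complex I (mt-Nd1 to mt-Nd6 and mt-Nd4l), III (mt-Cytb), IV (mt-Co1 to mt-Co3) and V (mt-Atp6 and mt-Atp8). Together they took 12.3%, 11.4%, 12.2% and 12.3% of all counts in POLR2G libraries and 12.9%, 13.3%, 10.5% and 12.02% in GFP control libraries (12.05 ± 0.412% and 12.2 ± 1.25%, SD, n = 4 each). The control group held both the highest and the lowest share. Since libraries were made from poly-A RNA, this share depends on the tails of mitochondrial transcripts as well as on their number.

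In log2 fold change the 13 genes ran from -0.06 (mt-Atp8) to 0.09 (mt-Nd4), with 10 higher and 3 lower means and a median of 0.04, and edgeR called 0 of them (smallest adjusted p 0.874; 0 at an unadjusted p under 0.05; DESeq2 and limma-voom also called 0). GFP control replicate 3 was the lowest library for 12 of the 13 genes and GFP control replicate 1 the highest for 9. Without replicate 3 the direction turned: the median was -0.06, with 3 higher and 10 lower means, and without replicate 1 it was 0.12, with 13 higher. With library totals as the only scaling, 3 means were higher and 10 lower. mt-Co1, the catalytic subunit of complex IV and the gene with the most counts among all members, had 37417, 34024, 37580 and 36451 CPM in POLR2G livers and 38775, 35804, 28355 and 33928 CPM in GFP control livers. The groups overlapped, with the control values on both sides of the POLR2G ones (log2 fold change 0.09, SE 0.098, edgeR adjusted p 0.874). mt-Cytb, the single subunit of complex III in that genome, had 12349 ± 829.8 CPM in POLR2G and 12091 ± 1805 CPM in GFP control livers (SD, n = 4 each; 0.03). mt-Nd4 had 9594 to 11188 CPM in POLR2G and 7898 to 10933 CPM in GFP control livers. mt-Nd3 had its lowest value, 700 CPM, in GFP control replicate 4 and its highest, 1120 CPM, in GFP control replicate 2. In POLR2G livers it had 804 to 927 CPM.

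**Figure D4:**
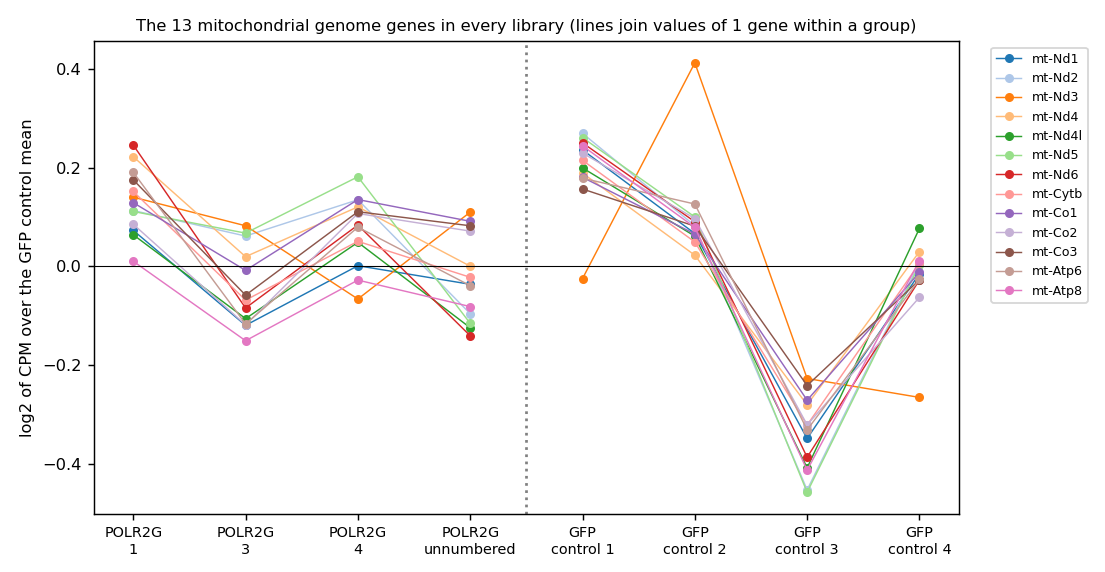
Log2 of the CPM of each mitochondrial genome gene in every library over its GFP control mean, POLR2G libraries left and GFP control libraries right; each line is 1 gene. GFP control replicate 3 is lowest for 12 of 13 genes and GFP control replicate 1 highest for 9. Not all genes move together. From POLR2G replicate 3 to the unnumbered POLR2G library mt-Nd2 falls from 8158 to 7316 CPM, while mt-Co2 rises from 9659 to 11017 CPM.

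The genes of the mitochondrial genome lie so close that some share bases, and counts there may be split between neighbours. The overlaps, on the plus strand of the GENCODE M21 mitochondrial genome (GRCm38), are shown with the shared bases in capitals.
mt-Atp8 and mt-Atp6, chrM:7915-7981: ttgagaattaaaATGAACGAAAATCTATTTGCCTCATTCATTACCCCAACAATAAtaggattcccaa
mt-Nd4l and mt-Nd4, chrM:10147-10193: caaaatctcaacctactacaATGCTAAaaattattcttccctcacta
mt-Nd5 and mt-Nd6, chrM:13534-13583: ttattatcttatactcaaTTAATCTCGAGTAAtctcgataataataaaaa
The first pair shares 43 bases, the second 7, and the third 14 on opposite strands. Of the 13 genes, mt-Nd6 is the 1 on the minus strand. Taken as a sum, mt-Atp8 and mt-Atp6 had 14901 to 17863 CPM in POLR2G livers and 12708 to 18706 CPM in GFP control livers, and mt-Nd4l with mt-Nd4 had 10896 to 12671 CPM in POLR2G livers and 8967 to 12562 CPM in GFP control livers. Both sums overlapped between the groups.

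Shares within the mitochondrial pool do not depend on scaling between libraries. For 2 of the 13 genes, 15.4% of the shares compared, the groups did not overlap, and both were lower in POLR2G libraries. In scaled CPM, a different measure, 2.83% of all tested genes lay wholly above and 2.68% wholly below. mt-Nd1, a core membrane subunit of complex I, made 5.24% to 5.41% of the pool in POLR2G libraries and 5.49% to 5.74% in GFP control libraries. mt-Atp8, a small membrane subunit of complex V, made 4.10% to 4.19% in POLR2G libraries and 4.20% to 4.61% in GFP control libraries. Its nearest values were 4.189% in the unnumbered POLR2G library and 4.197% in GFP control replicate 3. mt-Atp6, which shares bases with mt-Atp8, made 8.72% to 9.53% in POLR2G and 9.03% to 9.50% in GFP control libraries, which overlapped. The part of counts split between these neighbours was not tested. mt-Co1 made 28.6% to 30.3% in POLR2G and 28.3% to 29.7% in GFP control libraries. No p is given for these shares, which were singled out of 13 after their values were seen.

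The balance between the genomes was compared per library. The summed CPM of mitochondrial over nuclear members was 13.1, 11.5, 12.6 and 11.3 in POLR2G libraries and 13.7, 12.5, 10.6 and 12.4 in GFP control libraries (12.1 ± 0.867 and 12.3 ± 1.26, SD, n = 4 each). The groups overlapped over almost the whole range. The nuclear genes were the steadier set: the median within-group SD of log2 CPM was 0.102 for nuclear members and 0.188 for mitochondrial genome members, against 0.140 for all genes whose mean log2 CPM was 4 or more. Whether the fold changes of the genomes differ was not tested, and the sign of the difference between their medians turned without GFP control replicate 1, at 0.10 for nuclear and 0.12 for mitochondrial genome genes, and without the unnumbered POLR2G library, at 0.05 and 0.06.

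**Figure D5:**
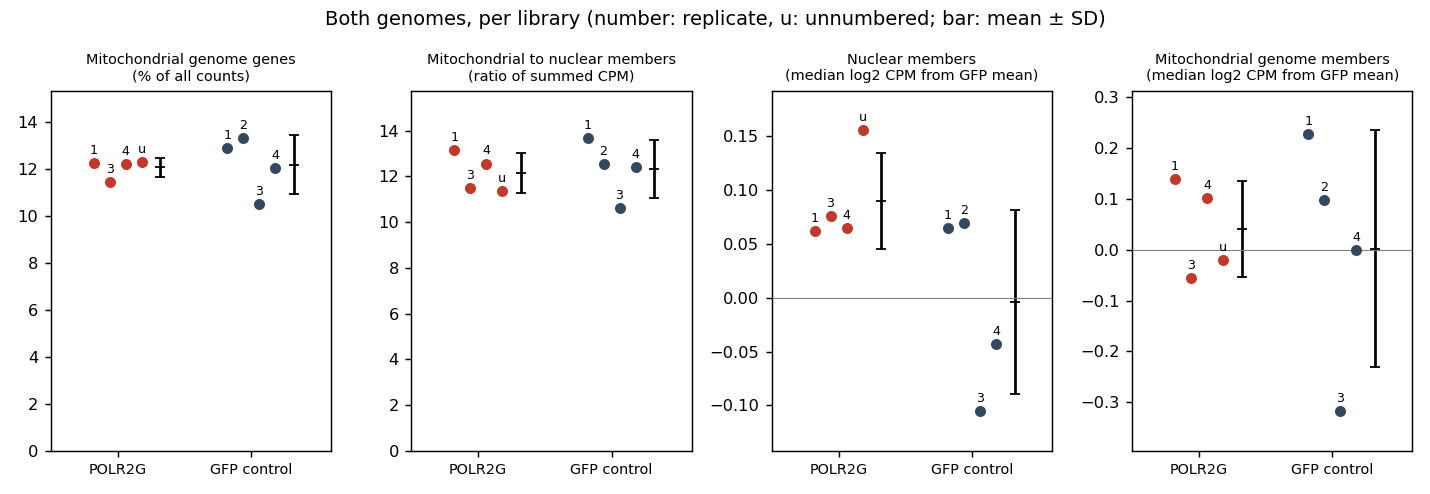
From left to right, per library: the percent of counts from mitochondrial genome genes, the ratio of summed CPM of mitochondrial to nuclear members, and the median log2 deviation from the GFP control mean of the nuclear and of the mitochondrial genome members; POLR2G left, GFP control right, bars are mean ± SD. GFP control values enclose the POLR2G values in the first panels (10.5% to 13.3% around 11.4% to 12.3%; 10.6 to 13.7 around 11.3 to 13.1).

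Genes that assemble and run the machinery were examined as lists, and edgeR called 0 of their 121 tested genes, with 0.0385% of all genes called. At an unadjusted p under 0.05 edgeR gave 7 (Ecsit, Sdhaf4, Coa7, Myc, Ppargc1a, Fh1 and Tomm7), or 5.79%, against 8.30% of all tested genes. limma-voom called 0, and DESeq2 called 2 of the 111 it adjusted, Coa7 and Myc, each at a DESeq2 adjusted p of 0.0116; this is 1.80%, the same share as over all genes. Counts by mean are given only as descriptions. Of 14 tested complex I assembly factors 10 had a higher and 4 a lower mean (median log2 fold change 0.07), and the 2 smallest p were those of Ecsit (0.23, edgeR adjusted p 0.473) and Tmem126a (0.15, 0.742). Complex II assembly factors were 2 and 2, led by Sdhaf4 at 14.95 ± 0.523 CPM in POLR2G and 12.5 ± 0.476 CPM in GFP control livers (SD, n = 4 each; 0.26, edgeR adjusted p 0.473). Complex IV assembly factors had 9 higher and 13 lower means over 22 tested and a median of -0.04, and their difference from the complex IV subunits was not tested.

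Among the complex IV assembly factors, Coa7 had 16.0, 16.6, 14.3 and 16.3 CPM in POLR2G livers and 21.7, 20.5, 20.6 and 20.5 CPM in GFP control livers. All POLR2G values lay below all control values. Its log2 fold change was -0.40 (SE 0.082), with an unadjusted p of 0.000815 that became 0.198 after adjustment over all genes in edgeR. Fastk, which the list also holds, had -1.15 (edgeR adjusted p 0.668) on 10 to 33 counts in POLR2G and 18 to 97 in GFP control libraries. GFP control replicate 4 stood alone at 5.25 CPM. The other control libraries had 1.16 to 1.62 CPM, within the POLR2G range of 0.585 to 1.88 CPM. Complex III factors were 2 higher and 1 lower, with Bcs1l, which inserts the Rieske subunit, at 0.25 and Lyrm7 at -0.41, and complex V factors 4 and 1, with Tmem242 at 0.27 and Atpaf2 at 0.11.

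Regulators of oxidative phosphorylation genes were 2 higher and 8 lower over 10 tested, with a median of -0.11. Myc, a growth regulator, had 20.9, 13.1, 32.4 and 31.1 CPM in POLR2G livers and 4.63, 4.46, 7.67 and 15.5 CPM in GFP control livers (log2 fold change 1.59, SE 0.429, edgeR adjusted p 0.350). Ppargc1a, the coactivator PGC-1alpha that drives mitochondrial genes in fasted liver, had 12.7, 14.1, 16.0 and 11.8 CPM in POLR2G livers and 17.2, 16.6, 22.2 and 20.4 CPM in GFP control livers, so the groups were apart in the opposite direction to most nuclear subunits (-0.48, SE 0.134, edgeR adjusted p 0.360). Nrf1 and Gabpa, whose patterns were searched in the promoters, gave 0.16 and -0.04.

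The mitochondrial transcription and maintenance genes had 14 higher and 8 lower means over 22 tested (median 0.06). Tfam, which packages the mitochondrial genome and takes part in starting its transcription, gave 0.18 (edgeR adjusted p 0.895) on 86 to 114 counts in POLR2G and 62 to 125 in GFP control libraries. The 2 smallest p of this list were those of Polrmt, the mitochondrial RNA polymerase, at 0 to 27 counts in POLR2G and 0 to 11 in GFP control libraries, and Polg2 (0.25, edgeR adjusted p 0.753). Citrate cycle genes were 5 and 7 over 12, led by Fh1 with 8.14 ± 1.87 CPM in POLR2G and 12.1 ± 1.14 CPM in GFP control livers (SD, n = 4 each; -0.58, edgeR adjusted p 0.409) and Cs at -0.10. Import and outer membrane genes were 10 and 8 over 18, with Tomm7 at 0.25 and Timm10 at -0.25. Other subunits and carriers were 5 and 7 over 12, with Minos1 at 0.20 and Etfb at 0.16. That list also held Ndufab1 and Usmg5, subunits that the symbol rule leaves out, at -0.0027 and 0.0051.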

How the data were processed

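Per the labels' protocols, strand-specific libraries were built from poly-A RNA of frozen liver. The authors deposited estimated counts per gene as whole numbers, not normalized, in 1 table. The submitters' processing notes name Salmon 1.2.1 and the builds GRCm38 and mm10; for the annotation and the step from transcripts to genes, the sources used here give nothing. A symbol from GENCODE M21 was found for 20817 of 20894 identifiers.

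edgeR 4.0.16 in R 4.3.3 was run on all genes: TMM scaling, filterByExpr (minimum count 10, minimum total 15), quasi-likelihood test with group only, two-sided, Benjamini-Hochberg adjustment, threshold 0.05. It was tested on simulated data. CPM are TMM-scaled. Exact two-sided permutation tests used the 70 arrangements of log2 CPM (prior count 2). DESeq2 1.42.0 and limma 3.58.1 (voom), other scalings, filters and left-out libraries were alternatives. The 12 within-group pairs of libraries differed by more than counting noise (chi-square over its degrees of freedom 13.4 to 138).

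The members, the lists and the naming rule were chosen with earlier results of these data known. The rule names, in each complex and genome, the genes of smallest p, highest level and extreme fold change, all mitochondrial genome genes, the untested members (1 is not reported here), and the 2 smallest p of each other list; Ndufb5, Ndufa10, Cox5a, Ndufs3, Atp5a1, Nrf1, Gabpa and Tfam were added after their values were seen.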

Additional observations from a re-analysis of the deposited data

Results flagged for a closer look

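In 8 of the 80 sets of 4 libraries checked, 1 library stood far from the other 3 of its group. Chance gives about 1 in 20 for independent sets. These sets share counts, as Sdha is part of the complex II sum and mt-Co2 of the mitochondrial share, so the 8 cannot be judged against that rate. GFP control replicate 3 was low for Sdha (552 CPM, the others 648 to 663) and for the summed nuclear genes of complex II (1142 CPM, the others 1268 to 1280). POLR2G replicate 1 was low for that sum within its group (1221 CPM, the others 1313 to 1328) and high for Atp5d (6.89 CPM, the others 4.04 to 4.49). POLR2G replicate 3 was low for mt-Co2 (9659 CPM, the others 11017 to 11293) and for the share of counts from mitochondrial genome genes (11.4%, the others 12.2% to 12.3%). The unnumbered POLR2G library was high for the summed nuclear genes of complex IV (2024 CPM, the others 1814 to 1838) and of complex V (3366 CPM, the others 3210 to 3227).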

How the results depend on the processing

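No oxidative phosphorylation gene was called under any of the 21 alternatives, where the smallest adjusted p was 0.169 (DESeq2). Over all genes 4 were called in the main analysis, 1 with library totals as scaling, 140 with DESeq2 and 1 to 6 with 1 library left out. The median of all genes was 0.0184 with upper quartile scaling, -0.0789 with library totals and 0.0014 with limma-voom. With library totals the nuclear median was 0.0015, that of complex I 0.0324, of II -0.00028, of III -0.00045, of IV 0.0038 and of V -0.0137; the cause was not tested. With 1 library left out the nuclear median ran between 0.05 and 0.10 and the mitochondrial genome median between -0.06 and 0.12. The complex medians ran between 0.07 and 0.12 (I), 0.02 and 0.10 (II), 0.03 and 0.10 (III), 0.03 and 0.11 (IV), and 0.04 and 0.08 (V). They were lowest without GFP control replicate 3 for I to III and without the unnumbered POLR2G library for IV and V. Of 660 values for 32 named genes under an alternative, 627 kept their side and 33, none called, changed sign.

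Deviations of libraries with the same replicate number had correlations of 0.064, -0.025 and 0.036. So few values cannot settle whether the numbers pair libraries. With a replicate block, on the 6 numbered libraries that share a number, 2 genes were called, against 1 without the block, 0 of them oxidative phosphorylation genes, and the medians were 0.0021 for all genes, 0.08 for nuclear and 0.11 for mitochondrial genome members. POLR2G replicates 1 and 4 correlated best with their own number and replicate 3 with GFP control replicate 4.

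The 8 members whose intervals reach past 1.5-fold were each at 11.7 CPM or less. Cox4i1, at 5.44 CPM in POLR2G and 5.88 CPM in GFP control livers, stayed within that range (0.679 to 1.26). Another 12 members had too few counts to be tested. Whether depth or the spread between libraries sets these limits was not tested.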
